A study of Mus musculus with 8 samples.

Results

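The 38 Hox genes described here are protein-coding genes whose symbol is Hoxa, Hoxb, Hoxc or Hoxd followed by a number, out of 21887 protein-coding genes with a position in the RefSeq table. They lie in 4 clusters, with 10 genes in HoxA, 10 in HoxB, 9 in HoxC and 9 in HoxD. Each gene was measured in its span plus 2 kb on each side, its window, and each cluster was also measured as 1 interval from the first to the last of these genes plus 2 kb. For HoxA that interval runs from Hoxa2 to Hoxa13, and its coverage, flanks and ratios are for that stretch. The measurement was 5-hydroxymethylcytosine (5hmC), read by immunoprecipitation of hydroxymethylated DNA and sequencing (hMeDIP-seq) as lists of enriched regions, or peaks. The cells were germinal center B cells, B cells that respond to antigen by rapid division and by mutating their antibody genes, taken from the spleens of C57BL/6 mice. One genotype was a TET2 knockout (KO) and the other wild type (WT), with 2 immunoprecipitated libraries each, numbered 2 and 3. The series holds 8 libraries, and the other 4 are inputs that were not analysed here as values of their own. The labels give neither the allele of the knockout, the age of the mice, an agent used to raise the germinal centers, nor whether libraries came from separate animals. The spread behind a p-value over libraries is thus that of these 4 libraries and may be technical. Peak lists hold no RNA, so the cell type could not be checked against marker transcripts and the expression of the Hox genes is not known from them.

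Hox proteins are homeodomain transcription factors that give cells of the embryo their position along the body axis. The genes of a cluster stand in the order in which they are used, from the anterior genes with low numbers to the posterior genes with high numbers, and genes with the same number in different clusters are paralogs. Their promoters are mostly rich in CpG, and in cells that do not use them they are held silent by Polycomb complexes, whereas the Trithorax family, including Kmt2a, keeps them active. In blood, genes such as Hoxa9, Hoxb4 and Hoxa10 act in stem and progenitor cells and are turned down as cells mature. TET2 oxidizes 5-methylcytosine to 5hmC, a step towards loss of methylation, and 5hmC is commonly found in gene bodies and around distal regulatory elements and is scarce at active CpG-rich start sites.

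The 4 peak lists held between 270542 and 300950 peaks and covered 110.6 to 139.3 Mb. KO replicate 3 had the smallest covered length, 110.6 Mb, and the lowest median fold enrichment, 4.38, against 4.89 to 5.51 in the other libraries. Fold enrichment is the authors' own value for each peak, its height over the local background. The local background recovered from the peaks, a stand-in for depth, was 11.6 and 10.9 reads in KO replicates 2 and 3, and 8.66 and 11.7 in WT replicates 2 and 3.

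Touching peaks of the lists were joined into merged regions, and 97 of the 356362 merged regions lay in the Hox intervals. HoxB held 47 of them, HoxC 25, HoxA 14 and HoxD 11. A peak was present in all 4 libraries in 55 of the 97 regions (56.7%), beside 59.9% of all merged regions. By cluster these were 25 of 47 in HoxB, 16 of 25 in HoxC, 10 of 14 in HoxA and 4 of 11 in HoxD. One region, in HoxC between Hoxc12 and Hoxc11 (chr15:102951517-102951847), was found in both WT but neither KO library (1.03%, beside 1.92% of all regions). One region, in HoxA (chr6:52221093-52221452), was found in both KO but neither WT library (1.03%, beside 1.32%). By these counts the Hox intervals were near the shares of all merged regions. The map of the 4 clusters shows where these peaks lay.

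**Figure D1:**
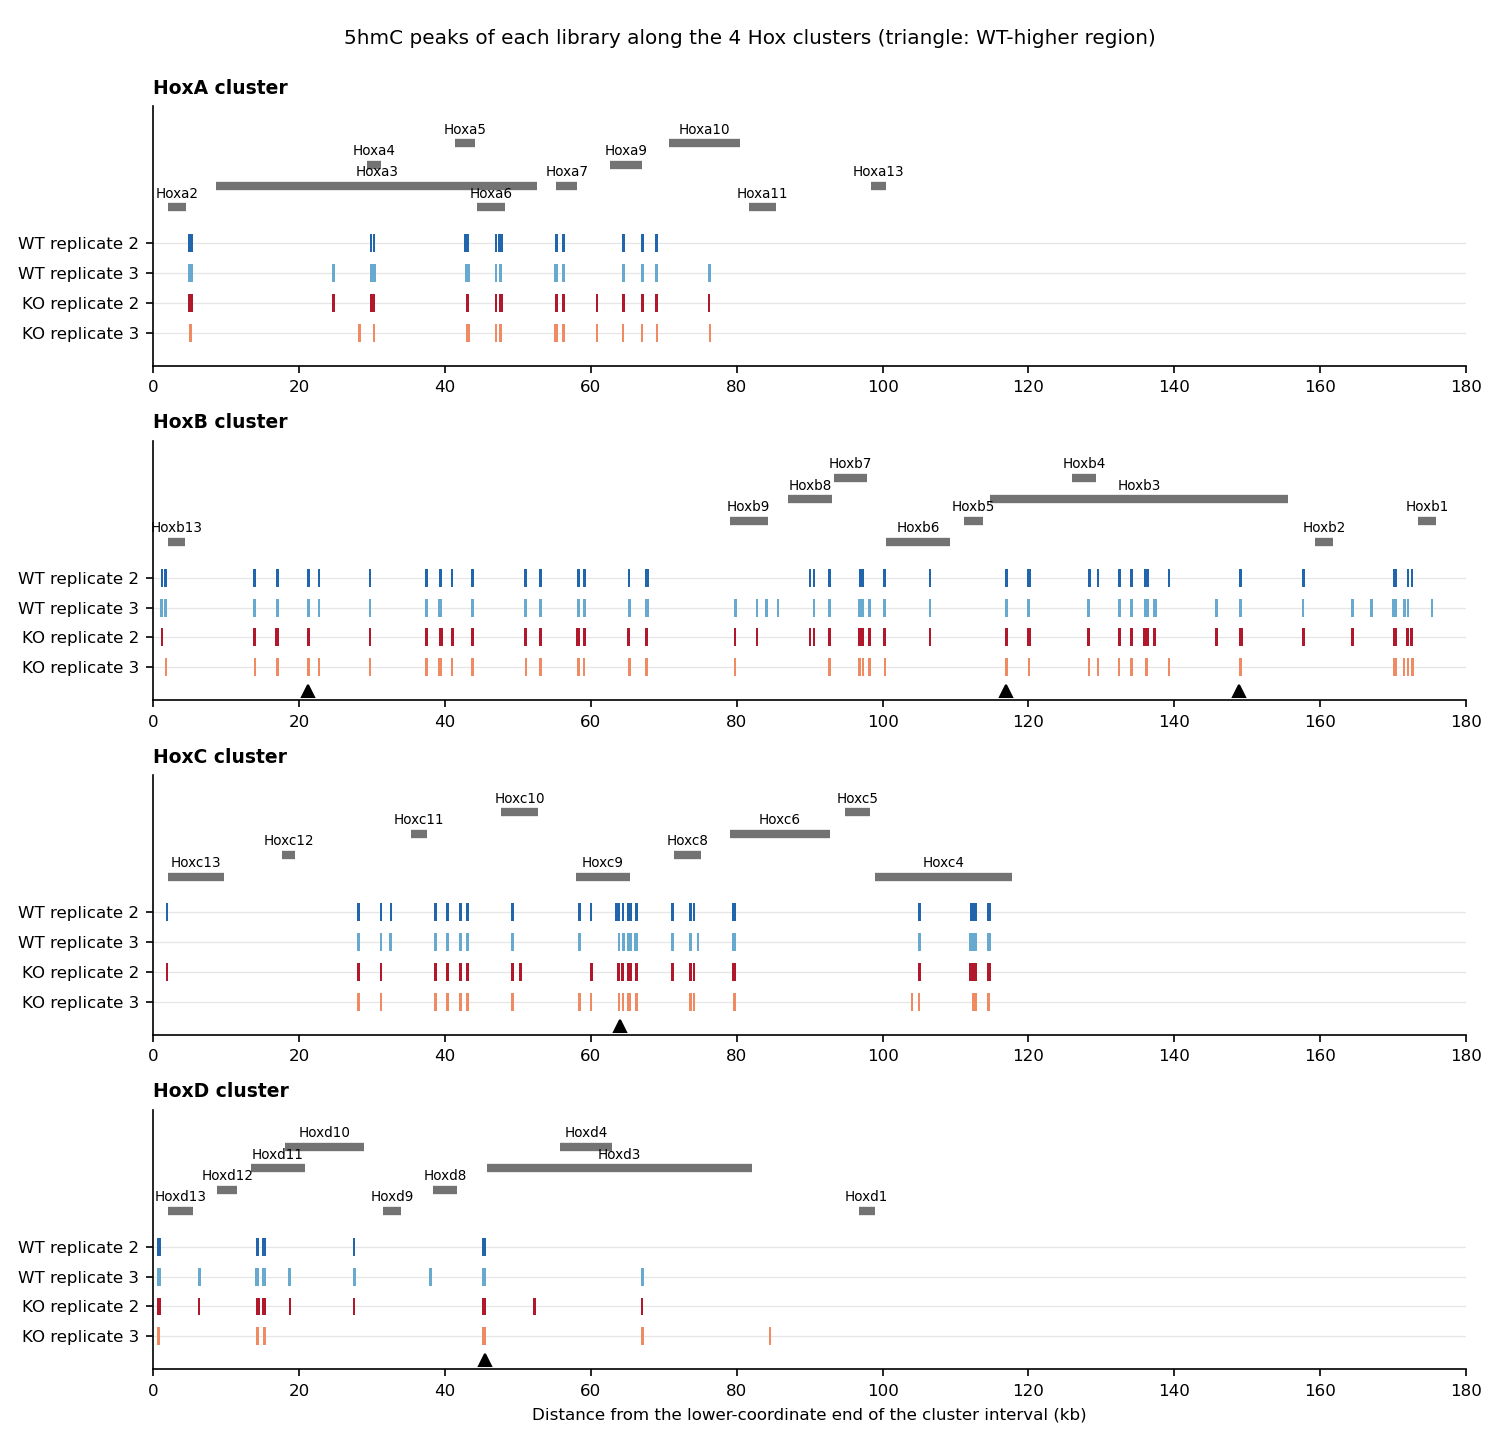
Positions of 5hmC peaks in each library (coloured bars, 1 row per library) along the 4 Hox cluster intervals, as distance in kb from the lower-coordinate end, with gene spans in grey and WT-higher regions of the authors' deposited table as triangles. Peaks recurred at the same places in most libraries, HoxB carried peaks through the stretch from Hoxb13 to Hoxb9, and no peak lay over Hoxa11 and Hoxa13.

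Promoters were read from a RefSeq table of windows of 300 bases, 250 before and 50 after a transcription start, which held 24 windows for 22 of the 38 genes. Peaks reached into 2 of these 24 windows in all 4 libraries (8.33%, beside 3.76% of 21263 windows of all protein-coding genes), those of Hoxa9 and Hoxd3. The window of Hoxd8 was touched in WT replicate 3 alone, over 24 bases. Hoxa9, a driver of blood progenitor growth, had 300 and 269 of 300 promoter bases covered in KO replicates 2 and 3, and 300 and 300 in WT replicates 2 and 3. All 4 libraries covered nearly the whole window, with no separation by genotype. Hoxd3, an anterior gene of the neck skeleton, had 88 and 115 bases covered in KO replicates 2 and 3, and 93 and 130 in WT replicates 2 and 3, all at the end away from the start. Here too both genotypes were covered and their ranges overlapped. The stretches of 250 bases upstream of these 2 starts are printed beside those of Hoxa13 and Hoxd13, posterior genes of limb and genital development whose promoters no peak touched. The sequences are from RefSeq on GRCm38.p6, 5′ to 3′ on the strand of the gene, with each CpG (the letters CG, the same on both strands) in capitals.
Hoxa9: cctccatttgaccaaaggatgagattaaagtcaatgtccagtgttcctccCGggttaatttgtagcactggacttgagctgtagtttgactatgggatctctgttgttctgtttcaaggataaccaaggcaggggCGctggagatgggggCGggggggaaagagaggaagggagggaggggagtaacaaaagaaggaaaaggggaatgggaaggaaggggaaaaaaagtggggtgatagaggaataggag
Hoxd3: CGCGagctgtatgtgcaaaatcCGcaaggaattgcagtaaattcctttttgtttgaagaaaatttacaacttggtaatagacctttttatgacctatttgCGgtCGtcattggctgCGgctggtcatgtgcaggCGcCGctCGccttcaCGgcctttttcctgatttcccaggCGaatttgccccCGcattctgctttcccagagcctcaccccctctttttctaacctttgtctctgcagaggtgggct
Hoxa13: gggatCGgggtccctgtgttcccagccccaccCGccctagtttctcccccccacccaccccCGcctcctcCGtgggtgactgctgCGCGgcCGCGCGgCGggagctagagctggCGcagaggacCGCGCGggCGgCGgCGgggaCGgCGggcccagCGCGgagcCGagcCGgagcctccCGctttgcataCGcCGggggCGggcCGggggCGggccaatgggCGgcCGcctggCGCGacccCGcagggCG
Hoxd13: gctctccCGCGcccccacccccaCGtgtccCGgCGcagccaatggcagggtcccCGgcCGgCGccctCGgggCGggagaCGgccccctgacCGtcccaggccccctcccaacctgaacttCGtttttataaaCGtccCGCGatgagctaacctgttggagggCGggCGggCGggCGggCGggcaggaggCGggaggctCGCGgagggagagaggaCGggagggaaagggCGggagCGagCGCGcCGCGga
The 4 stretches lie at chr6:52227371-52227620 on the minus strand, chr2:74711743-74711992 on the plus strand, chr6:52260881-52261130 on the minus strand and chr2:74667975-74668224 on the plus strand. They hold 3, 12, 35 and 31 CpG in that order. At least 1 CpG was present in all 24 Hox windows and in 95.4% of all windows. The observed over expected CpG ratio of the full window (CpG count times length over the product of C and G counts) was 0.28 for Hoxa9, 0.92 for Hoxd3, 0.92 for Hoxa13 and 0.90 for Hoxd13. So the promoter with the most covered bases was CpG-poor. Hoxa13 and Hoxd13 had the most CpG of the 24 full windows (45 and 37) and do not stand for all untouched promoters. Other untouched windows were CpG-poor, such as those of Hoxc4 (ratio 0.33) and Hoxd4 (0.34). In the Hoxd3 stretch, the covered end held 3 and 5 of the 12 CpG in KO replicates 2 and 3, and 3 and 6 in WT replicates 2 and 3. Its first 88 bases, with 3 CpG, fell in a WT-higher region described further on. A ratio of at least 0.6 was found in 12 of the 24 Hox windows and in 47.7% of all windows. A peak of at least 1 library touched 1 of these 12 Hox windows and 2 of the 12 below 0.6. The nearest peak to the Hoxa13 start lay 20468 to 20549 bases away over the 4 libraries, and the nearest to the Hoxd13 start 958 to 1038 bases away.

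Around the starts of the 24 Hox windows, peak coverage was lower just after the start than in the bins on either side of it. From 1000 to 500 bases upstream peaks covered 14.8% and 14.7% of bases in KO replicates 2 and 3, and 14.5% and 12.9% in WT replicates 2 and 3. In the first 500 bases downstream they covered 3.54%, 1.61%, 3.65% and 1.95% in the same order. Coverage was thus lower just after the start in each of the 4 libraries. Upstream both KO libraries stood above both WT libraries by a small margin, and downstream the genotypes overlapped. The mean over libraries was 14.2% and 2.69% at these places, beside 6.41% and 3.70% around all starts. The bin after the start was not the lowest of the Hox profile, which read 0.81% from 5000 to 4500 bases upstream and 0.98% from 3500 to 4000 bases downstream. With 24 windows, some of them of neighbouring genes, the Hox profile is a description.

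**Figure D2:**
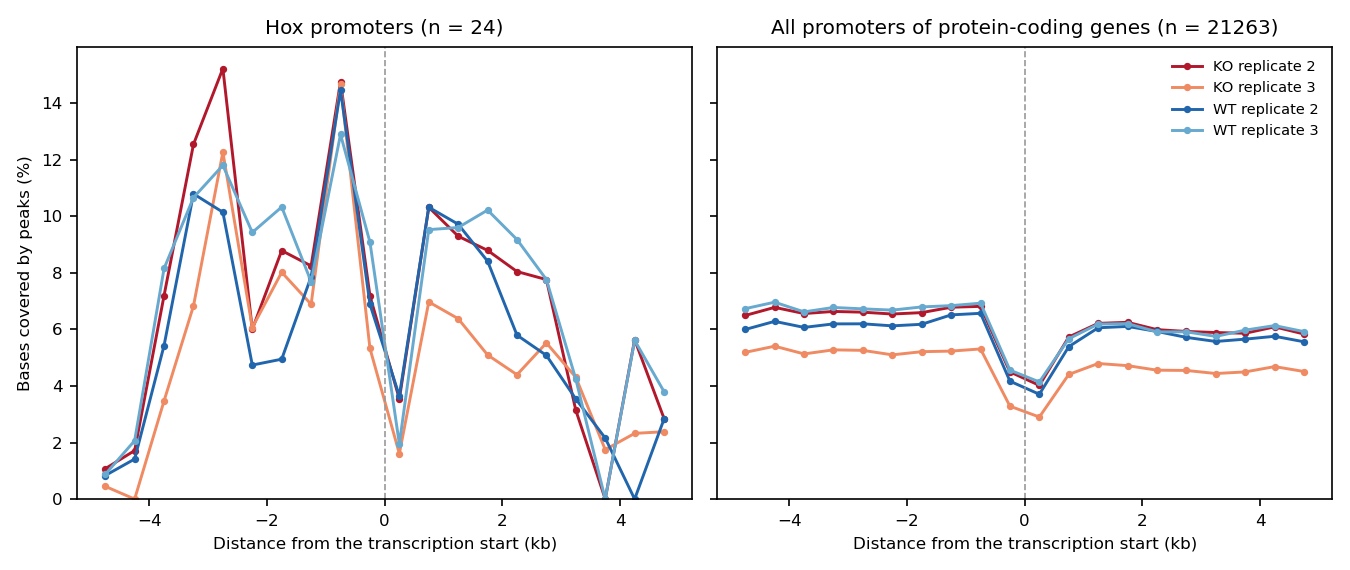
Percent of bases covered by peaks in bins of 500 bases against distance from the transcription start in kb, for the 24 Hox promoters (left) and the 21263 promoters of all protein-coding genes (right), 1 line per library. The dip after the start is seen in both panels, and the Hox curves are more uneven, with 14.2% at 1000 to 500 bases upstream on average.

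The 4 clusters differed in how much of them carried 5hmC peaks. HoxB (chr11:96192316-96370254) was covered over 9.26% and 7.15% of its 177.9 kb in KO replicates 2 and 3, and 8.31% and 9.74% in WT replicates 2 and 3. HoxC (chr15:102919131-103038856) was covered over 8.19%, 6.22%, 8.33% and 7.65% of its 119.7 kb in the same order of libraries. HoxA (chr6:52160417-52262880) was covered over 5.71%, 4.52%, 4.58% and 5.52% of 102.5 kb. HoxD (chr2:74666225-74767142) was covered over 3.88%, 2.46%, 2.29% and 3.93% of 100.9 kb. HoxB and HoxC were above HoxA, and HoxA above HoxD, in all 4 libraries. HoxB and HoxC changed places in 1 library, WT replicate 2. Over the 6 pairs of clusters, the mean log2 ratio was largest for HoxB over HoxD, 1.49 ± 0.28 (SD, n = 4; exact two-sided sign-flip permutation test, adjusted p = 0.15). The smallest p that 4 libraries allow in this exact permutation test is 0.13 before adjustment, and it was reached by every pair except HoxB over HoxC (log2 ratio 0.18 ± 0.14, p = 0.25, adjusted p = 0.25).

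Set against the rest of its own chromosome within each library, HoxB was covered 1.58-fold as densely (log2 ratio 0.66 ± 0.04, SD, n = 4; exact sign-flip permutation test, p = 0.13). HoxC was covered 1.496-fold as densely (0.58 ± 0.12, n = 4, exact p = 0.13). HoxD was covered at 0.627 of its chromosome (−0.67 ± 0.30, n = 4, exact p = 0.13). HoxA was at 1.04 of its chromosome (0.06 ± 0.08, n = 4, exact p = 0.25), with WT replicate 2 on the other side of 1. The direction for HoxB, HoxC and HoxD was the same in 4 of 4 libraries. The stretches of equal length on each side of HoxA were covered over 6.40% to 8.30% in the 4 libraries, all above HoxA itself, and the log2 ratio of HoxA to these flanks was −0.58 (exact p = 0.13). HoxD was also below its flanks, and HoxB and HoxC above theirs, in each library.

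**Figure D3:**
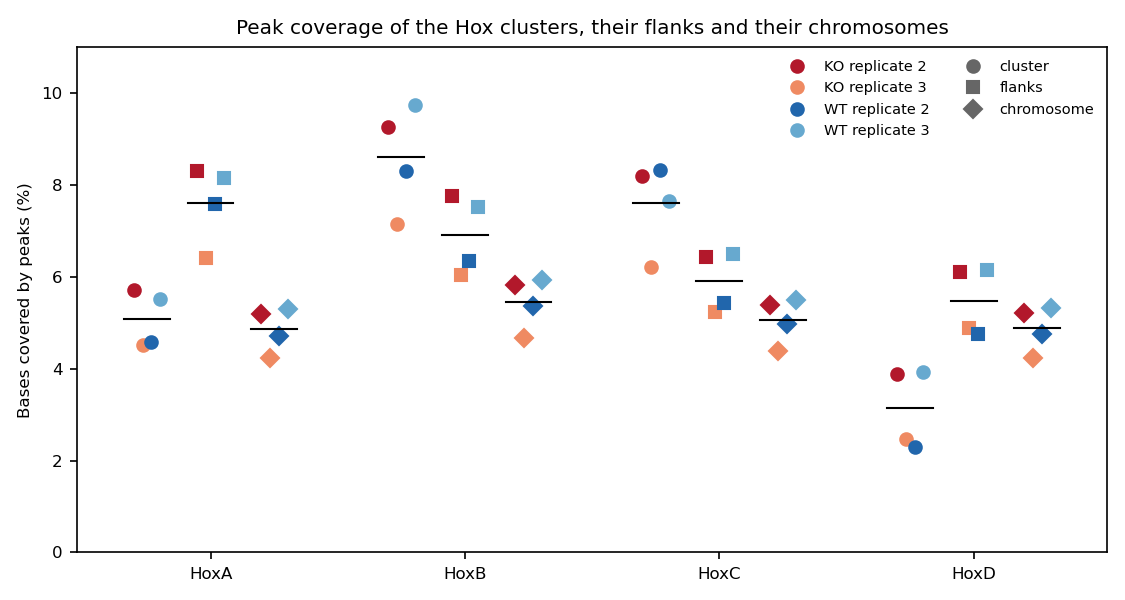
Percent of bases covered by peaks in each library (points, coloured by library) for each Hox cluster (circles), its flanks of equal length (squares) and the rest of its chromosome (diamonds); black lines are means over the 4 libraries. HoxB and HoxC lie above their chromosomes, HoxD lies below, and KO and WT points overlap for every cluster.

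Between genotypes, no cluster differed beyond the spread of its libraries in unscaled coverage by all peaks. The KO mean minus the WT mean was 0.06 percentage points for HoxA (5.11% ± 0.843 against 5.05% ± 0.662, SD, n = 2 each; exact permutation test, p = 1). It was −0.81 points for HoxB (8.21% ± 1.496 against 9.02% ± 1.01; exact p = 0.667), −0.78 for HoxC (7.21% ± 1.39 against 7.99% ± 0.477; exact p = 0.667) and 0.06 for HoxD (3.17% ± 0.998 against 3.11% ± 1.17; exact p = 1). With 2 libraries against 2, p cannot go below 0.33. Leaving out KO replicate 3, the library with the least covered length, turned the difference to 0.24 points for HoxB and 0.20 for HoxC. Counting only peaks of at least 5-fold enrichment, HoxA was covered over 2.52% and 1.24% in KO replicates 2 and 3, and 3.02% and 3.35% in WT replicates 2 and 3. Both KO libraries were then below both WT libraries (difference −1.31 points, exact p = 0.33), while the rest of chromosome 6 read 3.08%, 1.84%, 3.13% and 2.97% in the same order. With all peaks, scaled to equal covered bases, the differences were 0.39 points for HoxA, −0.27 for HoxB, −0.36 for HoxC and 0.26 for HoxD. For HoxA both KO libraries (5.33% and 5.22%) then stood above both WT libraries (4.70% and 5.07%; exact permutation test, p = 0.33).

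The length of HoxB came with a stretch of its own. Between Hoxb13, the posterior gene known from prostate and tail development, and Hoxb9 lie 74.7 kb with no protein-coding gene of the table. Peaks covered 8.10% and 7.58% of it in KO replicates 2 and 3, and 8.22% and 8.10% in WT replicates 2 and 3, with 14, 15, 15 and 14 peaks. From Hoxb9 to Hoxb1, over 98.9 kb, peaks covered 10.2%, 6.84%, 8.09% and 10.7%, with 23, 19, 19 and 26 peaks. In these unscaled percentages the libraries were close between Hoxb13 and Hoxb9 and spread more widely from Hoxb9 to Hoxb1. KO replicate 3 had the smallest covered length of the lists, 110.6 Mb, and the closeness was not tested after scaling. The former stretch does hold noncoding genes. One of them, Gm53, had 827 and 891 covered bases in KO replicates 2 and 3, and 812 and 907 in WT replicates 2 and 3. By the authors' fold enrichment, 11 of 14 and 7 of 15 peaks between Hoxb13 and Hoxb9 were at least 5-fold in KO replicates 2 and 3. In WT replicates 2 and 3 these were 12 of 15 and 11 of 14. From Hoxb9 to Hoxb1 they were 7 of 23, 6 of 19, 9 of 19 and 9 of 26, and over each whole list 51.7%, 35.8%, 59.1% and 47.9% of peaks. The stretch between Hoxb13 and Hoxb9 therefore held the larger share of tall peaks in each library, as a description within each list. Over all 4 clusters, gene spans (273.7 kb) were covered over 7.16%, 4.98%, 6.05% and 6.81%, and the sequence between them (211.3 kb) over 7.24%, 6.12%, 6.54% and 7.68%. This pooled order was not that of each cluster. In HoxC spans were the more covered in all 4 libraries (9.07%, 7.52%, 9.30% and 8.12%, against 7.18%, 5.11%, 7.31% and 7.67% between genes), and in KO replicate 2 they were so in each cluster. HoxB supplied 98.8 kb of the sequence between genes.

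Long stretches without any peak in any library lay at the posterior ends of HoxA and HoxC. In HoxA the last peak stood in Hoxa10, and from there 44.5 kb without a peak ran over Hoxa11, Hoxa13 and past the end of the cluster. This was at percentile 99.6 of the peak-free gaps of chromosome 6, whose median was 4.17 kb. In HoxC 25.8 kb without a peak covered Hoxc12 and most of Hoxc13 (percentile 97.2 of chromosome 15). The longest such gap was 17.1 kb in HoxD (percentile 91.1) and 11.8 kb in HoxB (percentile 85.3). Each of these 4 gaps was picked as the longest of its cluster and ranked among all single gaps of its chromosome. That choice alone raises the percentile, so the percentiles do not show that the gaps were unusual. These gaps are descriptions and were not tested.

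By gene, 24 of the 38 windows held peak bases in all 4 libraries, 5 in some libraries and 9 in none. The 9 were Hoxa11 and Hoxa13, Hoxb5, Hoxc5 and Hoxc12, and Hoxd1, Hoxd4, Hoxd9 and Hoxd12. They made up 23.7% of the Hox genes, beside 16.3% of all protein-coding genes. The Hox windows were short, with a median of 7.72 kb against 21.2 kb over all genes, and the part of window length in this share was not tested. The 9 include posterior genes (Hoxa11 and Hoxa13, used in limbs, and Hoxc12, Hoxd9 and Hoxd12), an anterior hindbrain gene (Hoxd1) and genes of the middle of the clusters (Hoxb5, Hoxc5, Hoxd4). Windows overlap where genes do: the span of Hoxa3 runs over Hoxa4, Hoxa5 and Hoxa6, that of Hoxb3 over Hoxb4 and that of Hoxd3 over Hoxd4. Of the 97 regions, 60 lay in 1 Hox window, 12 in more than 1 and 25 in none, 18 of the latter in HoxB.

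The median Hox window was covered over 5.56% on average over libraries, beside 3.93% over all genes, and 24 of 38 were above the value of all genes. By position in the cluster, the median was 4.81% for the 7 anterior genes (numbers 1 to 3), 8.68% for the 15 central genes (4 to 8) and 4.88% for the 16 posterior genes (9 to 13). By cluster it was 9.28% in HoxA, 7.61% in HoxB, 5.45% in HoxC and 1.08% in HoxD. The genes of HoxA and HoxD thus stood at opposite ends, although HoxA as an interval was at 1.04 of its chromosome.

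The densest window was that of Hoxc9, a gene of the posterior trunk, at 19.9% and 18.9% in KO replicates 2 and 3, and 24.96% and 20.2% in WT replicates 2 and 3 (percentile 98.6 of all genes by mean). Both WT libraries were above both KO libraries before scaling. Hoxa6, a central gene, followed at 18.2%, 16.2%, 21.0% and 19.7% in the same order, again with both KO libraries the lower before scaling. Hoxb7, known for a role in growth of progenitors, had 20.2%, 15.9%, 13.9% and 18.6%, with overlapping genotypes. Hoxc8, a gene of the thoracic skeleton and of motor neurons, had 15.4%, 8.74%, 14.1% and 13.4%, with KO replicate 3 low. Hoxb1, which sets the identity of a hindbrain segment, had 10.3%, 14.3%, 9.62% and 15.1%, in which replicate 3 was higher than replicate 2 in both genotypes. None of these 5 genes separated the genotypes once libraries were scaled to equal totals, except Hoxb7, whose scaled values are given with the test.

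**Figure D4:**
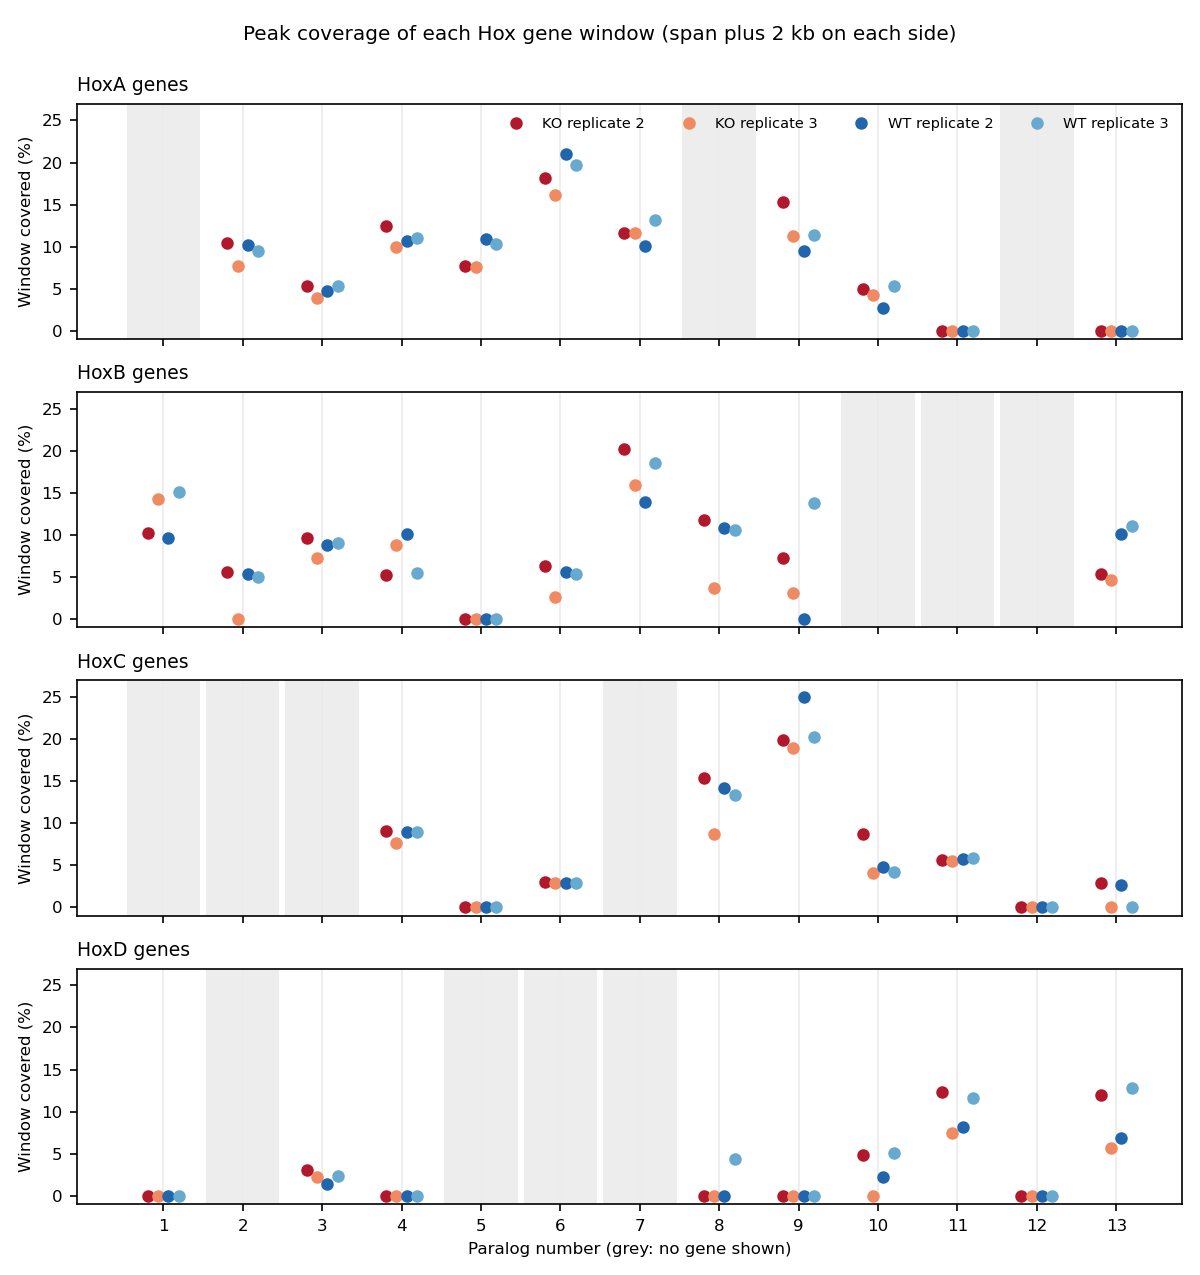
Percent of each Hox gene window (span plus 2 kb on each side) covered by peaks in each library (points), against paralog number, 1 panel per cluster, with grey columns where no gene is shown. Hoxc9, Hoxa6 and Hoxb7 are the densest windows, 9 genes sit at 0 in all 4 libraries, and KO and WT points mostly overlap.

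Among single regions, the authors' fold enrichment ranked a few Hox regions high within each list. The region at chr2:74711293-74711872, just before Hoxd3, had a fold of 9.08 and 7.33 in KO replicates 2 and 3, and 11.5 and 10.8 in WT replicates 2 and 3, at a mean percentile of 93.3 of the peaks of a list. The widest of these, 1101 bases at chr15:103031026-103032126 in Hoxc4, had 10.7, 7.95, 9.12 and 11.04 in the same order, also at percentile 93.3. A second region in Hoxc4 (chr15:103033421-103033970) stood at percentile 89.7, one between Hoxb2 and Hoxb1 (chr11:96362242-96362888) at 92.9, one in Hoxd11 (chr2:74681128-74681657) at 92.7 and one in Hoxa6 (chr6:52207741-52208325) at 86.9. All 6 had a peak in all 4 libraries. Taken per cluster, the median Hox peak stood near the middle of its list, at a mean percentile of 44.2 in HoxA, 53.2 in HoxB, 54.1 in HoxC and 57.2 in HoxD. Folds come from separate lists, so no height was compared between genotypes.

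The authors' deposited tables of differential regions list 24645 regions enriched in WT (WT-higher) and 50 enriched in KO (KO-higher), and 5 of the former and 0 of the latter lay in the Hox intervals. Of the 97 merged Hox regions, 5 overlapped a WT-higher region (5.15%), beside 6.45% of all merged regions, and none a KO-higher region, beside 0.00673%. Among regions with a peak in all 4 libraries the shares were 9.09% of 55 Hox regions and 8.90% of all. The Hox share was near the background by both counts. HoxB held 3 of the 5, HoxC 1, HoxD 1 and HoxA none. The tables carry no replicate values, and the sources used here do not give the scale of their score.

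In the authors' deposited table, 2 of the WT-higher regions lay in the span of Hoxb3, a gene active in blood stem cells, at chr11:96309116-96309318 (score 5.40) and chr11:96341134-96341334 (score 5.33). A peak overlapped each of them in every library. At the first, its fold was 5.86 and 5.81 in KO replicates 2 and 3, and 8.29 and 7.49 in WT replicates 2 and 3. At the second, it was 7.97, 5.84, 7.28 and 8.28 in the same order. Peaks covered 4305 and 3234 bases of the Hoxb3 window in KO replicates 2 and 3, and 3924 and 4079 in WT replicates 2 and 3. By covered bases the genotypes overlapped, and after scaling the limma log2 difference, KO minus WT, was 0.02 ± 0.11 (SE, adjusted p = 0.996). Covered bases count the length of peaks in the whole window and not their height. For this gene and those below, they therefore do not test the authors' call of a region inside a peak.

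In the authors' deposited table, 1 region lay between Hoxb13 and Hoxb9, at chr11:96213400-96213630 (score 5.15), under a peak that covered it whole in all 4 libraries. That peak had a fold of 7.33 and 6.04 in KO replicates 2 and 3, and 8.31 and 8.51 in WT replicates 2 and 3. Another WT-higher region stood in the Hoxc9 span, at chr15:102982934-102983209 (score 3.68 in the authors' deposited table). The peak over it had a fold of 3.97, 4.04, 5.18 and 5.44 in the same order of libraries. The Hoxc9 window held 2276 and 2157 covered bases in KO replicates 2 and 3, and 2849 and 2307 in WT replicates 2 and 3. WT replicate 2 was the highest, and after scaling the genotypes overlapped (limma log2 difference −0.08 ± 0.19, SE, adjusted p = 0.996).

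The last region of the authors' deposited table stood before Hoxd3, at chr2:74711602-74711830 (score 4.24), and ended 163 bases before the start, inside the peak whose end is printed in the Hoxd3 stretch above. It also lay in the noncoding genes Gm38462 and Hoxd3os1. The Hoxd3 window held 1229 and 886 covered bases in KO replicates 2 and 3, and 541 and 962 in WT replicates 2 and 3. WT replicate 2 was low, having 1 peak in the window where the others had 2 or 3. After scaling, the whole window had more covered bases in KO than in WT, in 2 of 2 KO libraries, a difference that did not pass the test given below. The peak with the WT-higher region covered 537 and 555 bases in KO replicates 2 and 3, and 541 and 580 in WT replicates 2 and 3. The difference of the window thus lay mainly in its other peaks.

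In all, 3 Hox genes had a WT-higher region in their window, Hoxb3 (2), Hoxc9 (1) and Hoxd3 (1). They were 3 of the 29 Hox genes with a merged region (10.3%), beside 28.3% of all such genes, whose windows were longer. No Hox gene had a KO-higher region, beside 0.104% of genes. Per 10 kb of merged regions, which takes the length covered into account, the Hox clusters had 1.12 WT-higher regions and the genome 1.41.

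For the test by gene, covered bases were scaled to equal totals and compared with limma on log2(bases + 200), among genes with a mean of at least 500 bases. Of the 38 Hox genes 22 passed that filter, among 14001 genes tested. None of the 22 was called at an adjusted p of 0.05, and none of the 14001 (0%). At an unadjusted p under 0.05 there were 0 Hox genes, beside 568 of all genes (4.06%). The median log2 difference was 0.02 over the 22 Hox genes, 12 higher and 10 lower in KO, and 0.02 over all genes tested. The lowest adjusted p of any gene was 0.992, so no Hox gene passed this test.

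The 3 Hox genes with the smallest p on the higher side in KO were Hoxa9, Hoxd3 and Hoxb7. Hoxa9 had 1182 and 1094 scaled bases in KO replicates 2 and 3, and 790 and 865 in WT replicates 2 and 3. Both KO libraries were above both WT libraries (limma log2 difference 0.38 ± 0.17, SE, unadjusted p = 0.0767, adjusted p = 0.992). The Hox region found in both KO and neither WT library lay in the window of this gene. Hoxd3 had 1151, 1042, 542 and 887 scaled bases in the same order, with no overlap between genotypes (0.53 ± 0.25, limma adjusted p = 0.992). Its difference was 0.25 without WT replicate 2 and 0.80 without WT replicate 3. Hoxb7 had 1617, 1603, 1193 and 1469, also without overlap (0.25 ± 0.16, limma adjusted p = 0.992), but with peaks of at least 5-fold its difference was −0.54. It was 0.12 without WT replicate 2 and 0.38 without WT replicate 3.

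On the lower side in KO stood Hoxb8, Hoxa5 and Hoxb6. Hoxb8, known for holding myeloid progenitors in growth, had 1095 and 429 scaled bases in KO replicates 2 and 3, and 1073 and 972 in WT replicates 2 and 3. KO replicate 3 alone was low (log2 difference −0.44 ± 0.38, limma adjusted p = 0.992), and the difference was 0.09 without it and −0.95 without KO replicate 2. Hoxb6 showed the same layout, with 757, 392, 710 and 636 (−0.21 ± 0.31, limma adjusted p = 0.996), 0.13 without KO replicate 3 and −0.56 without KO replicate 2. Hoxa5, needed for lung and axial development, had 496, 607, 748 and 646, with both KO libraries below both WT libraries (−0.26 ± 0.24, limma adjusted p = 0.992), and −0.15 without KO replicate 2.

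Libraries of the genotypes did not overlap for 5 of the 22 tested Hox genes. In 4 of them (18.2%), Hoxa9, Hoxd3, Hoxb7 and Hoxa4, both KO libraries were higher, beside 18% of all genes tested. In 1 (4.55%), Hoxa5, both were lower, beside 13.6%. The higher share was that of all genes, and the lower one rests on a single gene. Hoxa4, a central gene of the neck skeleton, had 701 and 702 scaled bases in KO against 642 and 614 in WT (0.12 ± 0.21, limma adjusted p = 0.996).

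Of the 16 Hox genes below the filter, 1 (Hoxb13) had both KO libraries below both WT libraries after scaling, beside 5.8% of the 7886 genes below the filter, and 1 (Hoxc10) had both above, beside 8.24%. Hoxb13 had 337 and 295 covered bases in KO replicates 2 and 3, and 634 and 694 in WT replicates 2 and 3, from 1 peak in each KO library and 2 in each WT library. Fitted without the filter, its log2 difference was −0.66 ± 0.14 (limma adjusted p = 0.859). Hoxc10, a gene of the lumbar spinal cord, had 789, 376, 440 and 378 covered bases, and after scaling KO replicate 3 stood above WT replicate 2 by 442 against 441 bases. Coverage could also differ widely inside a genotype: the Hoxb9 window held 1280 covered bases in WT replicate 3 and 0 in WT replicate 2, against 669 and 286 in KO.

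The clusters also hold microRNA genes, shown here because the seeds of 2 families recur across clusters, and none of the 6 loci was touched by a peak in any library. The loci are only 68 to 110 bases long. No share over all microRNA loci is given beside this count, so it is a description. The mature sequences are from RefSeq on GRCm38.p6, with the seed (bases 2 to 8) in capitals.
miR-10a-5p: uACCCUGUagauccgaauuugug
miR-10b-5p: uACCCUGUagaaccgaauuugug
miR-196a-5p: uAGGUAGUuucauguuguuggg
miR-196b-5p: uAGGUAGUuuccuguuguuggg
The miR-10 pair shares 1 seed, from HoxB (Mir10a) and HoxD (Mir10b), and the miR-196 family another, from HoxB (Mir196a-1), HoxC (Mir196a-2) and HoxA (Mir196b). These microRNAs are known to target Hox messages. The nearest peak to Mir196b lay 472 and 460 bases away in KO replicates 2 and 3, and 433 and 426 in WT replicates 2 and 3. The other 5 were farther: Mir10a 3090 to 3174 bases, Mir196a-2 3695 to 3981, Mir196a-1 4933 to 4979, Mir10b 6929 to 14235 and Mir615 8088 to 8985. Distances were broadly alike in all libraries except at Mir10b and Mir615. For Mir10b the distance was 14235 bases in WT replicate 2 and 6929 to 7001 in the others. For Mir615 it was 8088 bases in KO replicate 3 and 8921 to 8985 in the others.

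Of 26 long noncoding genes in the intervals, 11 held peak bases in all 4 libraries, 13 in none and 2 in some, with no share over all such genes given beside them. Hotair, a noncoding RNA of HoxC known for its link to Polycomb, had 476 and 359 bases covered in KO replicates 2 and 3, and 431 and 501 in WT replicates 2 and 3, with overlapping genotypes. Hottip, at the posterior end of HoxA beyond Hoxa13, had none, with the nearest peak 13745 to 13826 bases away.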

How the data were processed

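The 4 immunoprecipitated libraries each had 1 deposited peak list. The submitters' processing notes name MACS2 2.1.0.20151222, BWA 0.7.12-r1039 and the build GRCm38.p3, without settings. The deposited lists give a fold enrichment (ratio), a −log10 p-value, a −log10 q-value and a score per peak, and the deposited differential tables a score per region. Whole pileups were recovered from fold and −log10 p for at least 99.9974% of peaks, within 0.001.

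Gene positions came from RefSeq (GRCm38.p6), with 1 span per gene and no exons. Covered bases per window were scaled to equal totals and fitted with limma 3.58.1 (trend, robust; R 4.3.3) as log2(bases + 200), keeping mean coverage of 500 bases or more, with Benjamini-Hochberg adjustment; this scale understates changes of low genes. The fit was tested on simulated data. A library had a merged region where at least 1 bp of its peaks overlapped. Exact permutation tests enumerated every assignment of libraries. Named genes were those with a WT-higher region, the 5 most covered, those with no covered base, the 3 smallest limma p each way, and those without overlap between genotypes; listed genes by most WT-higher regions or smallest p. Members and lists were chosen with earlier results of these data known. One further gene that matches the naming rule is not reported here. Alternatives (5-fold peaks, equal peak numbers, windows, pseudocounts, filter, scaling, overlap, block, left-out libraries) are in the closing section.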

Additional observations from a re-analysis of the deposited data

How the results depend on the processing

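No Hox gene was called by limma under any of 13 alternatives. With peaks of at least 5-fold, the KO minus WT difference was −1.31 points for HoxA and −0.073 for HoxD, the log2 ratio of HoxA to its chromosome was −0.18, the median HoxD peak moved from percentile 57.2 to 74.8, and regions in all libraries, WT libraries only and KO libraries only numbered 23, 3 and 0. Against flanks, the log2 ratio of HoxA was −0.58. A score of at least 5 left 3 WT-higher regions and 1 Hox gene with one, Hoxb3; a window of span plus 5 kb gave 5 genes. Leaving out each library in turn gave differences of −0.53 to 0.66 points for HoxA, −1.87 to 0.24 for HoxB, −1.77 to 0.20 for HoxC and −0.76 to 0.88 for HoxD, 58 to 61 regions in all libraries, 1 to 7 in WT only and 3 to 5 in KO only; the HoxB and HoxC reversals came without KO replicate 3, the HoxA and HoxD ones without KO replicate 2 or WT replicate 2. With a library left out, its genotype has 1 library, assumed to vary like the other. The log2 difference without 1 library ran from −0.95 to 0.086 for Hoxb8 and from −0.56 to 0.13 for Hoxb6, both above 0 without KO replicate 3, from 0.25 to 0.80 for Hoxd3, 0.12 to 0.38 for Hoxb7 and −0.37 to −0.15 for Hoxa5. It was 0.098 for Hoxb6 with span plus 5 kb, and −0.54 for Hoxb7 with 5-fold peaks and −0.0084 without flanks. The causes were not tested. At an unadjusted p under 0.05, between 0 and 2 Hox genes appeared, Hoxc9 with 5-fold peaks, Hoxb8 without KO replicate 2, Hoxd3 without WT replicate 3 or with span plus 5 kb, and Hoxa9 and Hoxb13 without the filter. The replicate block called 0 Hox genes; the libraries share only a number (correlation of deviations 0.09 between same-numbered libraries over 14001 genes).

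Depth is known only through the recovered background, and a window with no peak shows only that none passed the caller's threshold. KO replicate 3 had the lowest fold enrichments and WT replicate 2 the lowest background. A summit count in place of coverage kept the direction of each cluster difference.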

Other observations

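Lists of genes that act on the Hox clusters or with their proteins are given here by their counts. The TALE homeodomain proteins are the DNA-binding partners of Hox proteins. By the authors' deposited table, 6 of their 9 genes (66.7%; median window 143.2 kb) had a WT-higher region in the window, 16 regions in all, led by Meis2 with 6 and Pknox2 with 4. None of the 9 was called by limma, 4 were higher and 5 lower in KO, and the median log2 difference was −0.01, beside 0.02 over all genes. Meis3 held 3564 and 3168 covered bases in KO replicates 2 and 3, and 2520 and 3494 in WT replicates 2 and 3, and after scaling both KO libraries (3337 and 3727) were above both WT libraries (2527 and 3222; log2 difference 0.29 ± 0.16, SE, limma adjusted p = 0.992).

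Among 27 Polycomb genes, the silencers of Hox clusters, 11 (40.7%) had a WT-higher region in the authors' deposited table, led by Jarid2 with 4 and Kdm2b with 3. Jarid2 held 7176, 5064, 9140 and 7680 covered bases in the same order of libraries (−0.34 ± 0.15, limma adjusted p = 0.992), and Eed 1205, 1430, 711 and 1096 (0.59 ± 0.26, limma adjusted p = 0.992). Of 12 genes of the Trithorax family and Dot1l, which keep Hox genes active, 1 had WT-higher regions in the authors' deposited table, Kmt2a with 4. Ash1l had the smallest p of that list, with 2361, 2547, 3244 and 4608 covered bases (−0.50 ± 0.20, limma adjusted p = 0.992). Of 8 upstream regulators Rara, a retinoic acid receptor, had 3 such regions in the authors' deposited table, and the others none. Beside all genes (23.7% with a WT-higher region, median window 21.2 kb), these shares were not tested, and the windows differ in length.

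Homeobox genes of development outside the clusters were nearer to the Hox genes in window length. Of 48 such genes (median window 10.9 kb), 2 (4.17%), Six3 and Alx1, had a WT-higher region in the authors' deposited table. The like share was 7.89% of the 38 Hox genes (3 genes) and 23.7% of all genes. The median window of the 48 genes was covered over 4.39%. Of 12 genes related to Hox genes by sequence or position (median window 9.63 kb), 3 (25%) had 1 each, Meox1, Meox2 and Gbx1. These shares were not tested either. None of these lists held a gene called by limma or a KO-higher region.

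Within 100 kb of the clusters, the authors' deposited table lists 8 further WT-higher regions, 4 beside HoxD, 2 beside HoxA and 2 beside HoxB. The nearest stood 17.6 kb beyond the HoxD interval. HoxC had no such region beside it. No rate for other stretches of this length is given beside the count, so it does not show an excess near the clusters.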
